A study of Mus musculus with 4 samples.

Results

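The osteoclast and macrophage fusion program was taken as 10 genes chosen by name: Tnfrsf11a, Oscar, Nfatc1, Mitf, Dcstamp, Ocstamp, Atp6v0d2, Acp5, Gpnmb and Spp1. All 10 were present among the 34745 genes of the expression table, 9 had at least 1 read count, and 8 had enough counts to be tested among 12418 genes. Ocstamp was too low to test and Oscar had no count in any library.

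Osteoclasts are bone-resorbing giant cells that form when cells of the macrophage lineage fuse. The cytokine RANKL binds the receptor RANK, the product of Tnfrsf11a, and this signal, together with receptors that carry or pair with activating adaptors, such as OSCAR, raises the transcription factor NFATc1. NFATc1 acts with MITF, PU.1 and AP-1 on genes for cell fusion (Dcstamp, Ocstamp, Atp6v0d2) and for bone resorption (Acp5, Ctsk). Macrophages also form giant cells, for which DC-STAMP is needed too, and abundant expression of Gpnmb, Spp1 and Atp6v0d2 is known from macrophages that handle much lipid or lysosomal cargo.

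Total RNA of primary mouse macrophages was sequenced in 4 libraries, 2 labelled WT and 2 labelled KO, each numbered 1 and 2 (n = 2 per genotype throughout). The study's text describes bone marrow-derived macrophages (BMDMs): those of the WT group came from G3bp1 f/f mice, in which the G3bp1 gene is flanked by loxP sites, and those of the KO group from G3bp1 mac-/- mice, in which Cre recombinase from the Lyz2 locus acts on the floxed gene in macrophages and also in granulocytes. G3BP1 is the scaffold protein of stress granules, and the comparison asks which transcripts differ between macrophages of these mice. Per the labels, the cells grew in DMEM with serum and antibiotics. No treatment is named. The sources used here do not state for these libraries the growth factor, the age and sex of the donor mice, whether the WT mice carried Cre, or whether the 2 libraries of a genotype came from separate mice. The p-values below therefore measure only the spread between these libraries, which may be technical.

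Library totals ran from 16724241 to 19747909 counts, and 15468 to 16031 genes had at least 1 count per library. The targeted gene, G3bp1, had 1691 and 2875 counts in the WT libraries, with 1307 and 2296 for KO. Its level in KO was 65.6% of that in WT, and the difference did not pass the test (log2 fold change -0.61, SE 0.40, adjusted p = 0.904 by edgeR's quasi-likelihood test). With single libraries left out the log2 fold change ran from -1.02 to -0.19. In CPM the genotypes overlapped, with 104 and 180 in WT and 70.1 and 117 in KO, and the counts do not show how much of this RNA lacked the deleted exon. Macrophage markers were abundant: summed over the 17 genes of a marker list, they reached 28083 and 26470 CPM in WT and 22307 and 26186 in KO. CPM stands for counts scaled to a common library total after TMM scaling, the normalisation of edgeR. With 2 libraries per genotype, the share of the 12418 genes called at an adjusted p under 0.05 and a log2 fold change beyond 1 in either direction was 0% by edgeR's quasi-likelihood test. An unadjusted p under 0.05 was reached by 823 genes (6.63%), while 181 genes were called by DESeq2's Wald test, 174 by edgeR's exact test and 0 by limma on FPKM. Both KO libraries lay below both WT libraries for 16.9% of the tested genes and above them for 20.0%.

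Of the 8 members tested, 0 were called between KO and WT by edgeR's quasi-likelihood test, DESeq2's Wald test, edgeR's exact test or limma. A fit with a term for the library number, whose meaning the labels do not give, called Dcstamp, as given below with the alternatives. Dcstamp, the fusion receptor, had the largest difference among the 8, with a KO level 44.6% of the WT level, and it was the only member to reach an unadjusted p under 0.05 and the only one with both KO libraries below both WT libraries. Of all tested genes, 6.63% reached that p and 16.9% had both KO libraries below both WT libraries. No member had both KO libraries above both WT libraries in CPM, against 20.0% of all tested genes. The other 7 differed by 1.37-fold or less between the genotypes. The median log2 fold change over the 8 was -0.0073, against 0.041 over all tested genes. These are bulk samples, in which fewer cells that express a gene and less of its RNA per cell cannot be told apart.

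**Figure D1:**
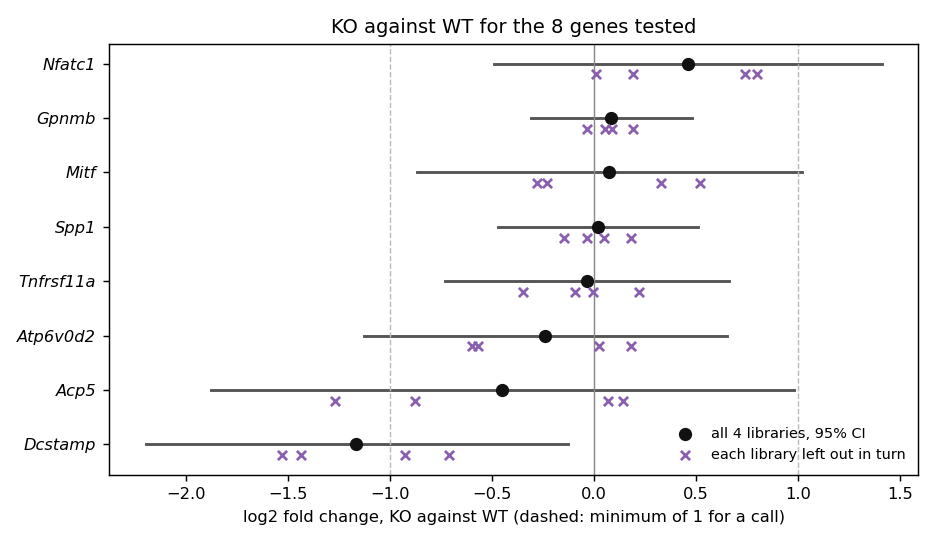
KO against WT for the 8 tested members, on the x axis as the fitted log2 fold change, with members on the y axis. Points are edgeR's estimates and bars their 95% confidence intervals (2 libraries per genotype), crosses are the estimates with each library left out in turn, and dashed lines mark the fold needed for a call. The interval of Dcstamp, from -2.20 to -0.13, lies wholly below 0, and the other 7 intervals cross 0.

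The members spanned the whole range of expression in these cells. By FPKM (fragments scaled by transcript length and by library total), the scale on which genes of different length can be compared, Gpnmb ranked 16 among all genes, Spp1 38, Atp6v0d2 81 and Acp5 272. The other members with counts were far lower, with Mitf at rank 3692, Dcstamp at 5836, Tnfrsf11a at 5964 and Nfatc1 at 8336, and Ocstamp stood at rank 13135. The FPKM ranges over the 4 libraries of Gpnmb, Spp1, Atp6v0d2 and Acp5 did not overlap, so their order held in each library. Dcstamp was the member whose place shifted: its FPKM lay above that of Tnfrsf11a in both WT libraries (3.84 against 3.72 in WT 1, and 6.85 against 3.54 in WT 2) and below it in both KO libraries (2.31 against 4.98, and 2.95 against 2.99). The ranges of Mitf and Dcstamp, of Dcstamp and Tnfrsf11a, and of Dcstamp and Nfatc1 overlapped. The 8 tested members together took 2.72% and 2.69% of all counts in WT and 3.42% and 2.82% in KO, most of it from Gpnmb.

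**Figure D2:**
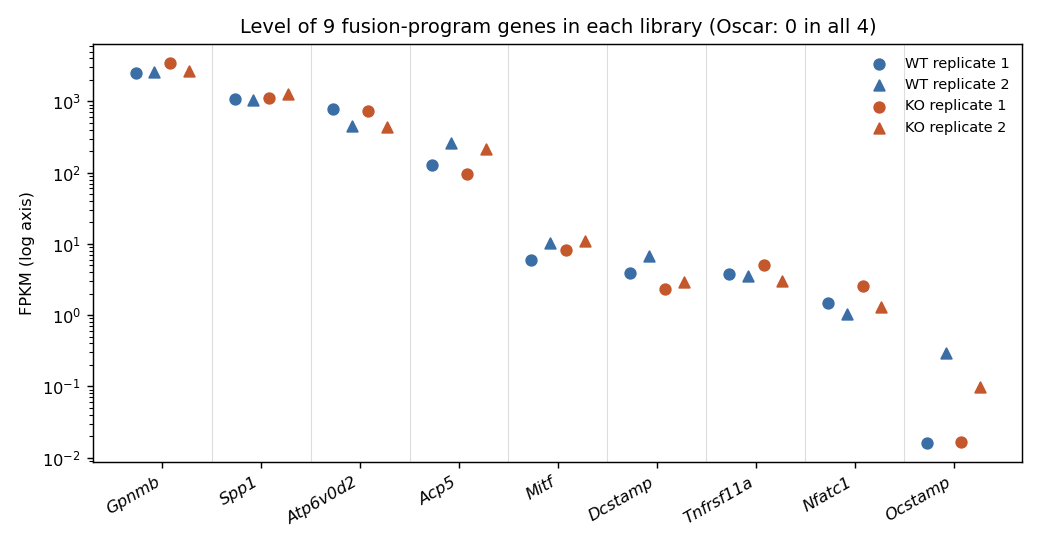
FPKM of the members in the 4 libraries, on a log scale on the y axis, with members along the x axis and 1 point per library coloured by genotype. The plot shows 4 abundant members, from Gpnmb at 2532 to 3458 FPKM down to Acp5 at 94.3 to 259, and a lower set that runs from Mitf at 5.96 to 10.8 down to Ocstamp below 0.3.

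Tnfrsf11a encodes RANK, the receptor of RANKL. The gene (ENSMUSG00000026321) lies on the plus strand of chromosome 1, from 105780718 to 105847981 (GRCm38 coordinates). It gave 396 and 375 counts in WT 1 and WT 2 and 522 and 370 in KO 1 and KO 2, or 24.4, 23.5, 28.0 and 18.8 CPM. The WT libraries lay close together, with KO 1 above them and KO 2 below. The means were 24.0 ± 0.621 CPM in WT and 23.4 ± 6.52 in KO (SD, n = 2), and the log2 fold change of -0.035 (SE 0.27, 95% confidence interval -0.73 to 0.66) did not pass edgeR's quasi-likelihood test (adjusted p = 0.993). Without KO 2 the estimate was 0.22. The ligand gene Tnfsf11 had 0 and 7 counts in the WT libraries against 11 and 19 in the KO libraries, and Tnfrsf11b, the decoy receptor of RANKL, had 9 and 19 in WT and 6 and 8 in KO. Both are genes of osteoblasts and stromal cells. On a list of 23 markers of those cells, the median log2 fold change was 2.12, 13 of the 16 tested markers had both KO libraries above both WT libraries (20.0% of all tested genes), and the summed level was 119 and 135 CPM in WT against 534 and 488 in KO. The osteoblast-defining markers Sp7, Bglap, Bglap2, Ibsp and Dmp1 were at 0 in every library, whereas Alpl had 0 and 1 counts in the WT libraries against 13 and 4 in the KO libraries, and Runx2, whose genotypes overlapped, had 2.22 and 1.82 CPM in WT against 4.67 and 1.98 in KO. Tnfrsf11b, unlike the median of this list, was lower in both KO libraries (0.555 and 1.19 CPM in WT, 0.322 and 0.406 in KO), on few counts. The part of such cells in the Tnfsf11 and Tnfrsf11b counts was not tested.

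Oscar encodes the osteoclast-associated receptor, a costimulator that signals through the Fc receptor gamma chain. The gene (chromosome 7, 3609813 to 3616157, minus strand) had 0 counts in each of the 4 libraries. The upper limit that a count of 0 leaves, for counting error only, was 0.152 to 0.188 CPM depending on the library. Calcr, the calcitonin receptor and another defining osteoclast gene, was also at 0 in all 4.

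Nfatc1 encodes the transcription factor that directs osteoclast differentiation. Its locus is on the minus strand of chromosome 18, from 80606205 to 80713071, and an annotated antisense gene, AC123818.1, overlaps it. Since the counting is not stated to use strand, reads of the 2 genes cannot be told apart. Counts were 199 and 137 in WT and 338 and 207 in KO, or 12.3, 8.60, 18.1 and 10.5 CPM in WT 1, WT 2, KO 1 and KO 2. KO 1 was the highest library, and KO 2 lay between both WT libraries. The means of 10.4 ± 2.60 CPM in WT and 14.3 ± 5.39 in KO (SD, n = 2) gave a log2 fold change of 0.46 (SE 0.37, interval -0.49 to 1.41, edgeR adjusted p = 0.941). It ran from 0.011 to 0.80 with single libraries left out.

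Mitf encodes a basic helix-loop-helix factor of the MiT/TFE family, which acts on osteoclast and lysosomal genes. The gene (chromosome 6, 97807052 to 98021349, plus strand) overlaps Gm15531 on the other strand. It had 63.4 and 113 CPM in WT and 75.0 and 110 in KO. In both genotypes the library numbered 2 was the higher, and the genotypes overlapped. The means, 88.0 ± 34.8 and 92.7 ± 25.0 CPM (SD, n = 2), differed by less than the spread between replicates (log2 fold change 0.075, SE 0.37, interval -0.87 to 1.02, edgeR adjusted p = 0.990). The sign of this small estimate turned without WT 1 (-0.28) and without KO 2 (-0.23).

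The relatives of Mitf were Tfe3 at 48.1, 63.7, 63.4 and 69.3 CPM in WT 1, WT 2, KO 1 and KO 2, Tfeb at 38.5, 47.8, 47.7 and 57.1, and Tfec at 35.0, 66.4, 23.6 and 35.3. For each of the 3 the genotypes overlapped, and no difference passed the test. Tfec, the macrophage-restricted member of the family, had the lowest edgeR adjusted p of the 3 (log2 fold change -0.78, SE 0.40, adjusted p = 0.849, and between -1.17 without WT 1 and -0.28 without WT 2).

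Dcstamp encodes DC-STAMP, a multipass membrane protein without which macrophages and osteoclast precursors do not fuse. The gene (ENSMUSG00000022303) lies on chromosome 15, from 39745932 to 39760934 on the plus strand as the table gives it. It had 130 and 231 counts in WT 1 and WT 2, and 77 and 116 in KO 1 and KO 2. Scaled, these were 8.01 and 14.5 CPM in WT and 4.13 and 5.89 in KO. The highest KO library lay below the lowest WT library, and in each genotype the library numbered 2 was the higher.

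The mean level of Dcstamp was 11.3 ± 4.58 CPM in WT and 5.01 ± 1.25 in KO (SD, n = 2), a 2.24-fold lower fitted level in KO. The log2 fold change was -1.17 (SE 0.41, interval -2.20 to -0.13), with an unadjusted p of 0.0336 by edgeR's quasi-likelihood test and an adjusted p of 0.663 over all tested genes. Without WT 2 the estimate was -0.71, and neither without WT 2 nor without KO 1 did any member reach an unadjusted p under 0.05. On the log2 scale, KO 1 lay at -0.95 from WT 1, and KO 2 at -1.30 from WT 2. With a term for the library number Dcstamp was called, as given below with the alternatives. Dendritic cells express Dcstamp too. Of 12 dendritic cell markers 8 were tested, 4 of them with both KO libraries below both WT libraries and 1 with both above (16.9% and 20.0% of all tested genes), and their median log2 fold change was -0.58 (-0.37 without WT 1, and -0.023 with no filter on low counts). Their summed level was 413 and 512 CPM in WT and 472 and 519 in KO, most of it from Itgax, which macrophages express too. Without Itgax the sum was 148 and 136 CPM in WT and 83.7 and 101 in KO. Their part in the Dcstamp values was not tested.

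Ocstamp encodes OC-STAMP, the close relative of DC-STAMP, which is needed for fusion as well. The gene (chromosome 2, 165393760 to 165400405, minus strand) gave 1 and 18 counts in WT 1 and WT 2, and 1 and 7 in KO 1 and KO 2. Both libraries numbered 1 were under the floor of 3 counts, and both libraries numbered 2 were above it. The depth did not allow a comparison of the genotypes. Dcstamp had 130 times as many counts as Ocstamp in WT 1 and 77.0 times as many in KO 1, but 12.8 and 16.6 times as many in WT 2 and KO 2. Each ratio of the libraries numbered 1 rests on a single Ocstamp count.

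Atp6v0d2 encodes the d2 subunit of the membrane part of the vacuolar proton pump (V-ATPase), which has a role in osteoclast fusion besides acidification. The gene (chromosome 4, 19876841 to 19922605, minus strand) stood at 2230 and 1327 CPM in WT and 1810 and 1194 in KO. In both genotypes the library numbered 1 was the higher, and the genotypes overlapped. The means were 1779 ± 639 and 1502 ± 435 CPM (SD, n = 2), with a log2 fold change of -0.24 (SE 0.35, interval -1.13 to 0.65, edgeR adjusted p = 0.965). Leaving out WT 1 gave 0.18, and leaving out KO 2 gave 0.025.

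Atp6v0d1, the d1 subunit found in most tissues, was lower than Atp6v0d2 in every library. On the FPKM scale Atp6v0d2 was 4.86 and 3.64 times as high as Atp6v0d1 in WT 1 and WT 2, and 4.80 and 3.68 times as high in KO 1 and KO 2. These ratios split by library number and were alike between the genotypes within each number.

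Acp5 encodes tartrate-resistant acid phosphatase, the enzyme by which osteoclasts are stained. The gene is on the minus strand of chromosome 9, from 22126731 to 22135746 as the table gives it, and overlaps 6530413G14Rik on the plus strand. It had 3456 and 7067 counts in WT 1 and WT 2 against 2543 and 6783 in KO 1 and KO 2, or 213, 444, 136 and 345 CPM. The libraries numbered 2 were 2.08-fold higher than those numbered 1 in WT and 2.52-fold higher in KO, and the genotypes overlapped. Means of 328 ± 163 CPM in WT and 241 ± 147 in KO (SD, n = 2) gave a log2 fold change of -0.45 (SE 0.56, interval -1.88 to 0.98, edgeR adjusted p = 0.964). Without WT 2 the estimate was 0.14, and without KO 1 it was 0.070.

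Gpnmb encodes a transmembrane glycoprotein of lysosomes and the cell surface that MITF regulates. The gene (chromosome 6, 49036546 to 49070929, plus strand) gave 321645 and 330635 counts for WT against 432161 and 389650 for KO, between 1.89% and 2.58% of each library. In CPM these were 19829, 20750, 23192 and 19796, so that KO 1 was the highest and KO 2 the lowest of the 4. The means were 20290 ± 651 CPM in WT and 21494 ± 2401 in KO (SD, n = 2), and the log2 fold change was 0.083 (SE 0.16, interval -0.31 to 0.48, edgeR adjusted p = 0.974). Without KO 1 it was -0.036, and with a correction for gene length it was -0.086.

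Spp1 encodes osteopontin, a secreted phosphoprotein of bone matrix that macrophages and osteoclasts also make. The gene (chromosome 5, 104435118 to 104441050, plus strand) overlaps Gm42793 on the same strand. Its levels were 6117 and 5917 CPM in WT and 5407 and 6797 in KO. Both WT libraries lay between both KO libraries. The means of 6017 ± 141 and 6102 ± 983 CPM (SD, n = 2) gave a log2 fold change of 0.020 (SE 0.19, interval -0.47 to 0.51, edgeR adjusted p = 0.993). It was -0.035 without WT 2, -0.15 without KO 2 and -0.018 with DESeq2's size factors. Osteoblasts make osteopontin too, and the stromal marker list given above was higher in both KO libraries. Its part in the Spp1 values was not tested.

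The scale mattered for both glycoproteins. On the deposited FPKM values, which carry the library total but no TMM factor, Gpnmb stood at 2532 and 2614 in WT and 3458 and 2641 in KO, and Spp1 at 1086 and 1037 in WT and 1121 and 1261 in KO. Both KO libraries were then above both WT libraries for both genes, whereas in CPM the genotypes overlapped. The TMM factors were 0.955 and 0.942 in WT and 1.12 and 0.997 in KO. Neither difference passed limma on log2(FPKM + 1).

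The RefSeq promoter table (GRCm38.p6) held 11 start-site windows for 6 of the 10 members, each read as the 250 bases before the start. Members without an entry were Nfatc1, Dcstamp, Ocstamp and Atp6v0d2. Both strands were searched for the cores bound by NFAT (GGAAA), by MITF and its relatives (CACGTG and CATGTG), by AP-1 (TGANTCA) and by PU.1 (GAGGAA). Of 32851 windows in the table, 55.6% held GGAAA, 6.02% CACGTG, 12.3% CATGTG, 6.75% TGANTCA and 23.3% GAGGAA. Capitals below mark matches on either strand. Of the 3 Acp5 windows the one with the most matches is shown, and of the 2 Spp1 windows the one farthest 5′. Gpnmb and Spp1 are shown as the most abundant members, Acp5 as a member that differed between the library numbers, and Oscar as the member without a count, each 5′ to 3′ on the strand of its gene.
Gpnmb, chr6:49036268-49036517, plus strand: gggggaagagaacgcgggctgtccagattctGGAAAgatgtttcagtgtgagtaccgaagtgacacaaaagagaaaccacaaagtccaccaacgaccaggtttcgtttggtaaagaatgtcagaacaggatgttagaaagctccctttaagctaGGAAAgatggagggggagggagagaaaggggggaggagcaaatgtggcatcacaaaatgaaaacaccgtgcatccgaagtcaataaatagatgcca
Spp1, chr5:104434861-104435110, plus strand: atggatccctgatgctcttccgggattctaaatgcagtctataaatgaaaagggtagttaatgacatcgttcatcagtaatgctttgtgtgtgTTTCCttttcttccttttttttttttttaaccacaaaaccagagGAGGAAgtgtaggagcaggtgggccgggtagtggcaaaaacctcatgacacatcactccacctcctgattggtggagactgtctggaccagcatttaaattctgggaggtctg
Acp5, chr9:22130599-22130848, minus strand: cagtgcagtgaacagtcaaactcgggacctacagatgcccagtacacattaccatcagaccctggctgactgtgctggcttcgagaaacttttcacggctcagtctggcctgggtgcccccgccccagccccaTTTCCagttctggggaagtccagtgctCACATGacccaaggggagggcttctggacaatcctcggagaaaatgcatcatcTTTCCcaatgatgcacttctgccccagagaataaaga
Oscar, chr7:3616158-3616407, minus strand: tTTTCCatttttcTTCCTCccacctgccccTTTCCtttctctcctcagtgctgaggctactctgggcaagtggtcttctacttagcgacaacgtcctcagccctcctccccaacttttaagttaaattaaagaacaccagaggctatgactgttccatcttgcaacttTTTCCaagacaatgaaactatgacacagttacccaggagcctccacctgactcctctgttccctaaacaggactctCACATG

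The Gpnmb window held 2 GGAAA matches and the shown Spp1 window 1, besides 1 GAGGAA match. The shown Acp5 window held 2 GGAAA matches and 1 CATGTG match, read as CACATG on the shown strand, 90 bases before the start. The other two Acp5 windows and the other Spp1 window held 1 GGAAA match each and no other. The Oscar window had the most matches of the 4, with 3 of GGAAA, 1 of GAGGAA and 1 of CATGTG. No CACGTG or TGANTCA match was found in any of the 11 windows, which says only that these letters are not there. A match is a description of sequence and no evidence of binding.

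Several members differed between the library numbers in both genotypes, and for Acp5, Mitf, Atp6v0d2 and Nfatc1 this difference was larger than the fitted one between the genotypes, while for Dcstamp it was smaller. Acp5, Dcstamp and Mitf were higher in the library numbered 2 in both genotypes, by 2.08-, 1.81- and 1.78-fold in WT and by 2.52-, 1.42- and 1.47-fold in KO. Atp6v0d2 and Nfatc1 went the other way, and the libraries numbered 2 had 0.595 and 0.702 times the level of those numbered 1 in WT and 0.660 and 0.580 times in KO. Tnfrsf11a was lower in number 2 by log2 ratios of -0.053 in WT and -0.57 in KO, and Gpnmb and Spp1 differed in sign between the genotypes. Of all 12418 tested genes, 4006 were higher and 4056 lower in number 2 in both genotypes. The labels do not say what the number stands for, and no test was made of it. The FPKM of Acp5 was 0.16 and 0.13 times that of Atp6v0d2 in WT 1 and KO 1, and 0.57 and 0.49 times in WT 2 and KO 2.

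**Figure D3:**
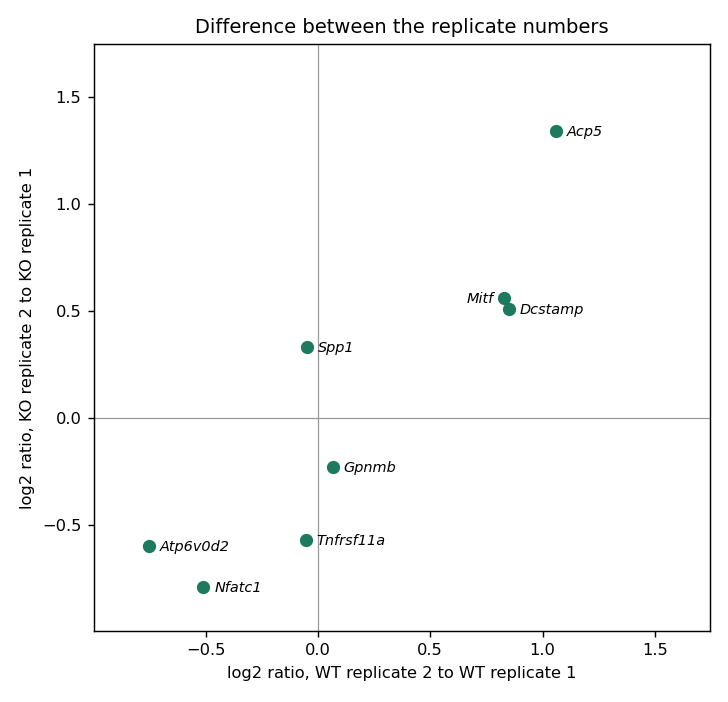
The log2 ratio of the library numbered 2 to the library numbered 1 for the 8 tested members, in WT on the x axis and in KO on the y axis, from CPM. Each point is 1 gene. Acp5, Mitf and Dcstamp sit in the upper right, Atp6v0d2, Nfatc1 and Tnfrsf11a in the lower left.

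Taken within a library number, the KO to WT ratios of the members had the same sign in both numbers for 4 of the 8. Nfatc1 was above 0 in both (0.56 and 0.29 on the log2 scale), and Dcstamp, Acp5 (-0.64 and -0.36) and Atp6v0d2 (-0.30 and -0.15) were below 0 in both. Tnfrsf11a, Mitf, Gpnmb and Spp1 changed sign. With 1 library per genotype in each number, these ratios have no replicate check.

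**Figure D4:**
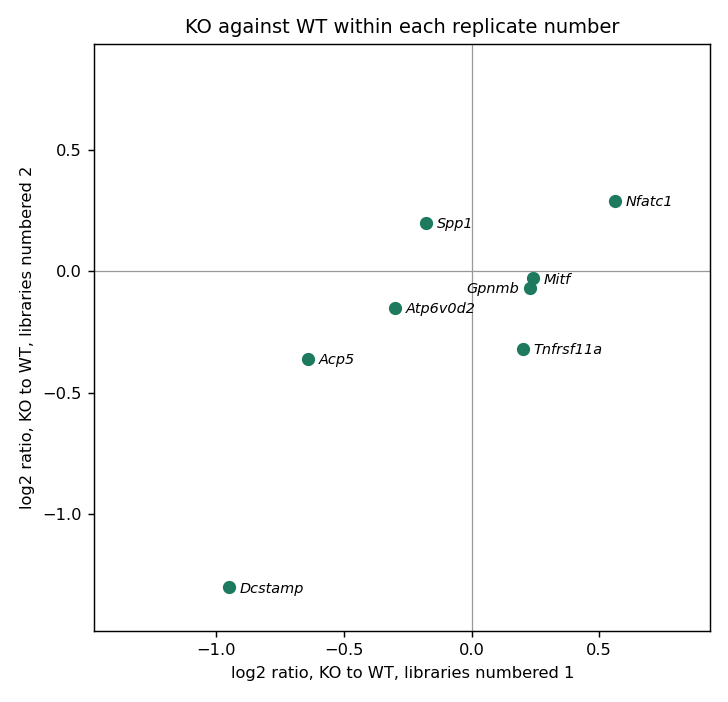
The log2 ratio of KO to WT for the 8 tested members, between the libraries numbered 1 on the x axis and those numbered 2 on the y axis. Each point is 1 gene. Dcstamp stands apart in the lower left at -0.95 and -1.30, and Gpnmb, Mitf, Spp1 and Tnfrsf11a lie near 0 with opposite signs.

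The other genes of the pathway were read from 9 lists that hold 206 genes besides the members. Of these 190 were tested and 0 were called by edgeR's quasi-likelihood test. An unadjusted p under 0.05 was reached by 8 with a higher and 2 with a lower KO level, against 576 and 247 of all tested genes. Both KO libraries were above both WT libraries for 34 and below them for 28, against 20.0% and 16.9% of all tested genes. The median log2 fold change was 0.0023, against 0.041 over all tested genes. Besides genes named for their role, those named below had the largest difference in each direction among genes with a mean of at least 5 CPM whose genotypes did not overlap. None of the named genes passed edgeR's quasi-likelihood test after adjustment. DESeq2's Wald test called 4 of the named genes (Il1r1, Pdlim4, Adam12 and Fn1) and edgeR's exact test 4 (Il1r1, Pdlim4, Adam12 and Cthrc1), each with a higher KO level. Leaving out 1 library turned the sign of 0 of the 31 genes chosen by size and moved the log2 fold change of 21 by over 1.5 times, so that single values below are to be read with that spread.

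Among ligands and receptors, 5 of 14 tested genes were higher and 4 lower in both KO libraries, against 20.0% and 16.9% of all tested genes. Il1r1, the receptor of interleukin 1, had 6.53 and 11.2 CPM in WT and 32.2 and 29.4 in KO (log2 fold change 1.80, SE 0.33, adjusted p = 0.263 by edgeR's quasi-likelihood test, 0.00173 by DESeq2's Wald test and 0.0122 by edgeR's exact test). It is also abundant in fibroblasts, and its values followed the stromal marker list, whose part was not tested. Csf1, the macrophage growth factor gene, had a log2 fold change of 0.76 (0.27 without WT 1 and 1.5 without WT 2), and the paired receptors Sirpb1c and Sirpb1a had -0.80 and -0.65. Csf1r, the receptor of that growth factor, was at 388 and 631 CPM in WT and 402 and 552 in KO.

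Signal transduction and transcription genes had medians near 0 whose sign turned with single libraries. For 31 tested signalling genes the median was -0.0044, with Mapk14 at 0.56, Map3k7 at 0.35, Blnk at -0.18 and Mapk3 at -0.090, the last changing sign on FPKM (0.063). For 21 activators of transcription it was -0.042, with Id1 at 0.56 and Bach1 at 0.16. For 22 repressors and inhibitors it was -0.058, with Id3 at 0.62 and Rgs10 at -0.61, which was -0.024 without WT 1. Without WT 2 the medians of signalling genes, activators and repressors were 0.24, 0.26 and 0.39, and without KO 1 they were 0.19, 0.20 and 0.18. Without KO 2 the medians were 0.041, -0.58 and -0.33, and without WT 1 they were -0.092, -0.33 and -0.22. On FPKM they were 0.19, 0.068 and 0.15, where that of all genes was 0.11. Irf8, a repressor of osteoclast formation, had 90.4 and 57.9 CPM in WT and 119 and 61.4 in KO. Its genotypes overlapped, and it was lower in number 2 in both, as Nfatc1 was.

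The fusion and cytoskeleton list had 9 of 30 tested genes higher and 2 lower in both KO libraries, against 20.0% and 16.9% of all tested genes. In edgeR's quasi-likelihood test 4 had an unadjusted p under 0.05, all higher, against 6.63% of all tested genes in either direction. Those 4 include Adam12 and Sh3pxd2a, the podosome scaffold TKS5, which were chosen after their values were seen, and the other two were Cd81 and Itgam. Adam12 was at 1.11 and 1.95 CPM in WT and 7.46 and 6.50 in KO (edgeR adjusted p = 0.264), and Sh3pxd2a at 2.34 and 2.95 in WT and 7.57 and 5.64 in KO (adjusted p = 0.399). Both are also expressed by stromal cells, whose marker list moved the same way and whose part was not tested. The tetraspanin gene Cd81 had a log2 fold change of 0.57 and the macrophage integrin Itgam one of 0.82, the latter uncertain because 2 overlapping gene identifiers share that symbol. Cd47, a surface protein with a role in macrophage fusion, stood at -0.41 and Anxa5 at -0.16.

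Resorption genes had a median of 0.065 over 23 tested genes, which turned to -0.086 with the gene length correction (all genes -0.058), to -0.13 without KO 1 and to -0.0095 without WT 2. Ctsk, the collagen-cleaving cathepsin of osteoclasts, was abundant at 1413 and 1210 CPM in WT and 938 and 1079 in KO (log2 fold change -0.38, SE 0.22, edgeR adjusted p = 0.879). Pdlim4 had the largest log2 fold change of the list, 3.43 (SE 0.31, adjusted p = 0.216), from 2.10 and 2.20 CPM to 19.3 and 27.1, and Cthrc1, named after its values were seen, rested on few counts at 0.185 and 0.0628 CPM in WT and 1.45 and 1.07 in KO. Both are also stromal genes, and the part of the stromal markers was not tested. Ltbp3 had 0.47 and Rab7 -0.17. Mmp9 (3.14 and 28.6 CPM in WT, 3.17 and 10.6 in KO) and the integrin gene Itgb3 (23.1 and 17.6, 35.1 and 18.1) overlapped between the genotypes.

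Of the 18 tested V-ATPase subunits, 8 were lower and 2 higher in both KO libraries, against 16.9% and 20.0% of all tested genes. Their median was -0.14, between -0.32 without WT 2 and -0.065 without WT 1. On FPKM the median of this list turned to 0.039, where that of all genes was 0.11. Atp6v1f (-0.59) and Atp6v0e (-0.56) led the lower ones, and Atp6v0a2 (0.24) and Atp6v0c (0.13) were the 2 higher ones. Atp6v0a4, Atp6v1b1, Atp6v1c2 and Atp6v1e2 had no count. Among 26 partners and lysosomal targets of the MiT/TFE factors the median was 0.039, and its sign turned without KO 1 (-0.087), without WT 2 (-0.054), with the length correction (-0.014, all genes -0.058) and with DESeq2's size factors (-0.0017, all genes 0.0026). Named genes of this list were Flcn at 0.54, Ctsl at -0.42 and Asah1 at -0.35.

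Among 16 tested osteopontin receptors and related matrix genes the median was 0.19, and it lay between -0.030 without WT 1 and 0.89 without WT 2. Fn1, fibronectin, had 64.4 and 114 CPM in WT and 226 and 224 in KO (log2 fold change 1.33, edgeR adjusted p = 0.387), and fibroblasts make it too. Their part was not tested. Lgals3 (-0.65) and Mmp12 (-0.50), both macrophage products, were lower in both KO libraries. The bone matrix relatives of Spp1 on its chromosome cluster, Ibsp, Dmp1, Mepe and Dspp, had no count in any library.

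**Figure D5:**
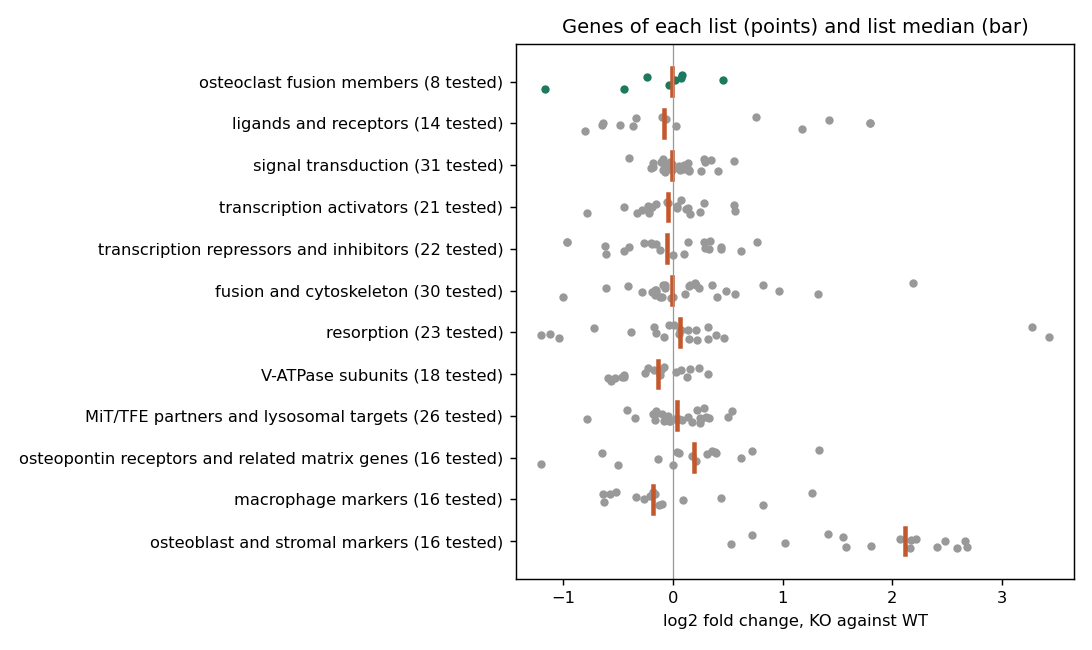
Fitted log2 fold change of KO against WT on the x axis for the tested genes of the members, of each pathway list and of the macrophage and stromal marker lists, with lists along the y axis. Each small point is 1 gene and each bar the median of its list. The pathway medians run from -0.14 for the V-ATPase subunits (0.039 on FPKM) to 0.19 for the osteopontin list, while the stromal markers stand apart at 2.12.

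Osteoclast markers were also read as a list. Of 12 such genes, which include members, 9 were tested, 1 had both KO libraries above and 1 both below the WT libraries (20.0% and 16.9% of all tested genes), and their summed level was 1668 and 1713 CPM in WT and 1134 and 1467 in KO, most of it Ctsk and Acp5. The median log2 fold change of the 9 was 0.22, with 5 above 0, and turned to -0.38 for genes with a mean of at least 1 CPM, to -0.17 without KO 1, to -0.31 without KO 2 and to -0.20 without WT 1. Other cell type markers were low. Summed levels in WT and KO were 91.2 and 130 against 83.3 and 102 CPM for neutrophils, 117 and 106 against 46.4 and 55.4 for mast cells and basophils, 46.0 and 48.6 against 25.0 and 28.1 for lymphocytes, and 12.1 and 8.41 against 2.04 and 3.10 for erythroid cells. Within the neutrophil list, most of the sum came from Csf3r, while S100a9 had 91 and 82 counts in the WT libraries against 2 and 1 in the KO libraries, and it and Retnlg (log2 fold change -4.05) were called lower by DESeq2's Wald test and edgeR's exact test, though not by the quasi-likelihood test. The same tests called Cma1, of mast cells, and Hbb-bs, of erythroid cells, lower, DESeq2 also Mcpt4 and Tpsb2, and of the stromal markers 10 (DESeq2) and 9 (exact test) higher. These genes were chosen after their values were seen. Mpo, Elane, Mcpt8, Car1 and Slc4a1 were among the markers at 0.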

How the data were processed

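Total RNA of 4 macrophage libraries (2 WT, 2 KO) was sequenced on an Illumina NovaSeq instrument. The authors filtered reads with Seqtk and used HISAT2 2.0.4 and StringTie 1.3.3b, per the study's methods and the submitters' processing notes. They deposited whole-number counts per gene, not normalised, with an FPKM value beside each. The gene length that a count and its FPKM imply varied by no more than 0.00398% over the libraries, so the deposited FPKM values carry only the library total. The notes name the build mm39, but 27763 of 34344 gene identifiers shared with GENCODE M21 had its GRCm38 start and end. Coordinates are therefore given as GRCm38. Strand use in counting is not given in the sources used here.

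Counts were tested with edgeR 4.0.16 in R 4.3.3 (filterByExpr with a minimum count of 10 and a total of 15, TMM, two-sided quasi-likelihood test, Benjamini-Hochberg adjustment over 12418 genes). The standard error is the absolute log2 fold change divided by the square root of F. Within-number ratios add 0.5 counts. Alternatives used DESeq2 1.42.0, limma 3.58.1 on log2(FPKM + 1), other filters, a gene length correction, a term for library number, and each library left out. The fits were tested on simulated counts in which 200 genes changed 4-fold. Without a simulated effect of library number, the fit without a block recovered 192 of them. With such an effect that fit recovered 0, and the fit with a term for library number recovered 192. All pairs of libraries differed beyond counting noise (chi-square over its degrees of freedom from 17.1 to 92.0).

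The members and lists were chosen with earlier results of these data known. Named were the members, G3bp1, 12 related genes, and up to 2 genes per list and direction with the largest log2 fold change among genes with a mean of at least 5 CPM and non-overlapping genotypes. Genes outside this rule are named as chosen after their values were seen, and a few genes under it are not reported here. Depth limits low genes: a count of 0 allows 3 counts, or 0.152 to 0.188 CPM.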

Additional observations from a re-analysis of the deposited data

How the results depend on the processing

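With the library number as a replicate block, 664 of 12418 genes were called (5.35%, 494 higher and 170 lower in KO), among them 1 member, Dcstamp (log2 fold change -1.13, edgeR adjusted p = 0.00108, range over its alternatives 0.00108 to 1.00), and 30 genes of the pathway and marker lists. The pathway genes among them were Il1r1 (1.83), Adam12 (2.20), Sh3pxd2a (1.31), Fn1 (1.39), Pdlim4 (3.41), Cthrc1 (3.28) and Snx10 (-1.01), with adjusted p from 8.19e-29 to 9.24e-04. The block turned the medians of signalling genes, activators, repressors and the fusion list to 0.088, 0.016, 0.10 and 0.083. The block with a gene length correction called 401 genes, 1 member (Dcstamp, -1.03) and 27 list genes. DESeq2's Wald test called 181 and 20, and edgeR's exact test 174 and 17, with no member. The labels do not say what the number marks, and with 2 pairs it was not taken as a pairing, although deviations from the genotype means correlated by 0.692 between the same-numbered libraries. The estimated biological coefficient of variation was 0.343 without the block and 0.169 with it. The cause of the other differences was not tested.

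The median of the members was -0.15 with the length correction, -0.16 with block and length correction, 0.12 with limma on FPKM, where that of all genes was -0.058, -0.051 and 0.11, and -0.065 to 0.025 when each library was left out. G3bp1 ran from -1.02 to -0.19 without single libraries. Signs turned in these cases. With the length correction, without and with the block, Gpnmb gave -0.086 and -0.089, Spp1 -0.10 and -0.11, Mitf -0.12 and -0.12, and Tfe3 -0.055 and -0.059. DESeq2's size factors and Wald test gave -0.018 for Spp1. Limma on FPKM gave 0.079 for Tnfrsf11a, 0.063 for Mapk3, 0.080 for Csf1r, 0.29 for Nfkb2 and 0.17 for Relb. With the block, Nfkb2 gave 0.18 (0.13 with length correction) and Relb 0.088. Leaving out single libraries gave -1.27 to 0.14 for Acp5, -0.60 to 0.18 for Atp6v0d2, -0.036 to 0.19 for Gpnmb, -0.15 to 0.18 for Spp1, -0.28 to 0.52 for Mitf, -0.35 to 0.22 for Tnfrsf11a, -0.40 to 0.26 for Csf1r, -0.27 to 0.68 for Irf8, -0.17 to 0.79 for Itgb3, -2.32 to 1.10 for Mmp9, -2.26 to 2.67 for Nfkb2 and -2.01 to 2.20 for Relb. Dcstamp ran from -1.53 to -0.71 and Nfatc1 from 0.011 to 0.80.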

Other observations

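Pathway genes outside the members differed between the library numbers in both genotypes, given here as values with no test and chosen after they were seen. Nfkb2 and Relb, the subunits of the alternative NF-kappaB pathway that RANK engages, stood at 15.9 and 8.94 CPM in WT 1 and 22.9 and 10.5 in KO 1, but at 203 and 75.6 in WT 2 and 184 and 73.7 in KO 2. The difference was not particular to that pathway. Nfkb1 had 30.1 and 206 CPM in WT 1 and WT 2 and 39.3 and 186 in KO 1 and KO 2. Nfkbia had 32.2 and 533 in WT and 25.5 and 388 in KO. Of 31 tested signalling genes, 16 were higher and 5 lower in number 2 in both genotypes. Snx10, a sorting nexin needed for osteoclast acid secretion, had 132 and 291 CPM in WT 1 and WT 2 and 69.3 and 136 in KO 1 and KO 2 (log2 fold change between genotypes -1.04, SE 0.51, edgeR adjusted p = 0.848, and between -1.61 without KO 2 and -0.39 without WT 2). Of the 190 tested pathway genes, 88 were higher and 51 lower in the libraries numbered 2 in both genotypes, against 4006 and 4056 of all 12418 tested genes. Among the 21 activators of transcription 16 were higher and 2 lower.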
